A study of Mus musculus with 4 samples.

Results

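The proteasome genes are those whose symbols begin with Psm, followed by a letter from a to g and a number. Psmc3ip, a meiotic recombination factor, was left out. There were 48 proteasome genes among 22552 symbols, and they were chosen by name. RNA was sequenced from haploid testis cells of male mice aged 23 days, labelled round spermatids and sorted after Hoechst staining; by the design text, no later haploid stage than an early round spermatid step exists at this age. The 4 libraries comprised 2 of wild-type and 2 of Sox30 knockout genotype, the latter lacking a transcription factor of the SOX family. The background strain was labelled DBA/C57/ICR and DBA/C59/ICR for wild-type libraries 1 and 2 and DBA/C58/ICR and DBA/C60/ICR for knockout libraries 1 and 2. Which part of Sox30 was removed is not in the labels, nor do they say whether the loss was restricted to a cell type, or whether each library came from its own animal or animals.

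The proteasome is the protease that degrades proteins tagged with ubiquitin. Its barrel, the 20S core, has outer rings of alpha subunits and inner rings of beta subunits, some of which cut the substrate, and a 19S regulatory particle, made of a base with ATPases and a lid, binds, unfolds and admits tagged proteins. Other activators can take the place of the regulatory particle. In the testis a germ cell alpha subunit, Psma8, replaces Psma7 in many particles, and the activator Psme4, also called PA200, is known for the degradation of acetylated histones when spermatids exchange histones for protamines. Levels are given as FPKM, fragments scaled by transcript length and library size, so levels of different genes can be compared.

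The RNA differed strongly between the genotypes outside the proteasome. Sox30 stood at 11.4 and 16.2 FPKM in wild-type libraries 1 and 2 and at 1.46 and 3.16 FPKM in knockout libraries 1 and 2, so the log2 change was -2.19 (SE 0.43, limma adjusted p = 0.0219; 0.295 and 0.357 when wild-type library 1 or 2 was left out, and 0.0660 when genes of any level were tested). Of 10 round spermatid markers, 9 fell, and their summed level was 6337 to 9933 FPKM in wild-type cells and 187 to 294 FPKM in the knockout. Of 7 spermatocyte markers listed, 0 passed by limma, with a median log2 change of -0.80, against -0.23 over all genes tested. At an unadjusted p under 0.05 by limma 2 were lower and 0 higher, against 23.0% and 8.30% of all genes tested. In 5 of the 7 markers both knockout values lay below both wild-type values (38.6% of all genes tested). In Ccna1 both lay above (22.2% of all genes tested). The 7 summed to 581 to 631 against 503 to 645 FPKM, with Ccna1 at 163 and 192 against 369 and 210 FPKM. Of the tested markers of other cells, 4 of 4 of spermatogonia, 2 of 2 of Leydig cells, 2 of 4 of red blood cells and 1 of 1 of peritubular and endothelial cells fell. Summed over all listed markers, tested or not, spermatogonia genes stood at 32.1 to 36.1 against 3.28 to 6.03 FPKM and Leydig genes at 36.8 to 60.0 FPKM against 0.0674 FPKM or less. Red blood cell genes summed to 148 to 248 against 0.178 to 8.51 FPKM and peritubular and endothelial genes to 7.03 to 7.96 FPKM against 2.03 FPKM or less. The 6 Sertoli cell markers listed summed to 83.3 to 221 against 21.9 to 63.5 FPKM, with Amh listed at 0 in all libraries; the 1 tested did not pass. The part of these differences in the results below was not tested, and in sorted bulk RNA fewer cells of a type and less RNA per cell cannot be told apart.

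The summed proteasome transcript level was no lower in the knockout. The 48 genes summed to 5326 and 4816 FPKM in wild-type libraries 1 and 2 and to 6136 and 5463 FPKM in knockout libraries 1 and 2, so both knockout sums lay above both wild-type sums. Their share of all FPKM was 0.938% and 0.962% against 1.03% and 0.810%, and there the groups overlapped. Of the 48, 45 had a mean of at least 1 FPKM over the 4 libraries and were tested with limma on log2(FPKM + 1), with p-values adjusted over all 9124 genes tested. Psmd9 and Psmd13 rose, 0 fell and 43 did not pass a limma adjusted p of 0.05; of all genes tested, 1.95% rose and 13.4% fell by that rule. The split depended on scaling: 178 of all genes rose and 1221 fell here, and 608 rose and 1012 fell after quantile normalization, where 3 members rose (Psmd9, Psmd13 and Psmg3) and 1 fell (Psma6). At an unadjusted p under 0.05 by limma, 6 members were higher (Psmb3, Psmb5, Psmd9, Psmd13, Psmg3 and Psmg4) and 3 lower (Psma6, Psmc6 and Psmg2), against 8.30% and 23.0% of all genes tested; no member of the other role groups reached it.

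**Figure D1:**
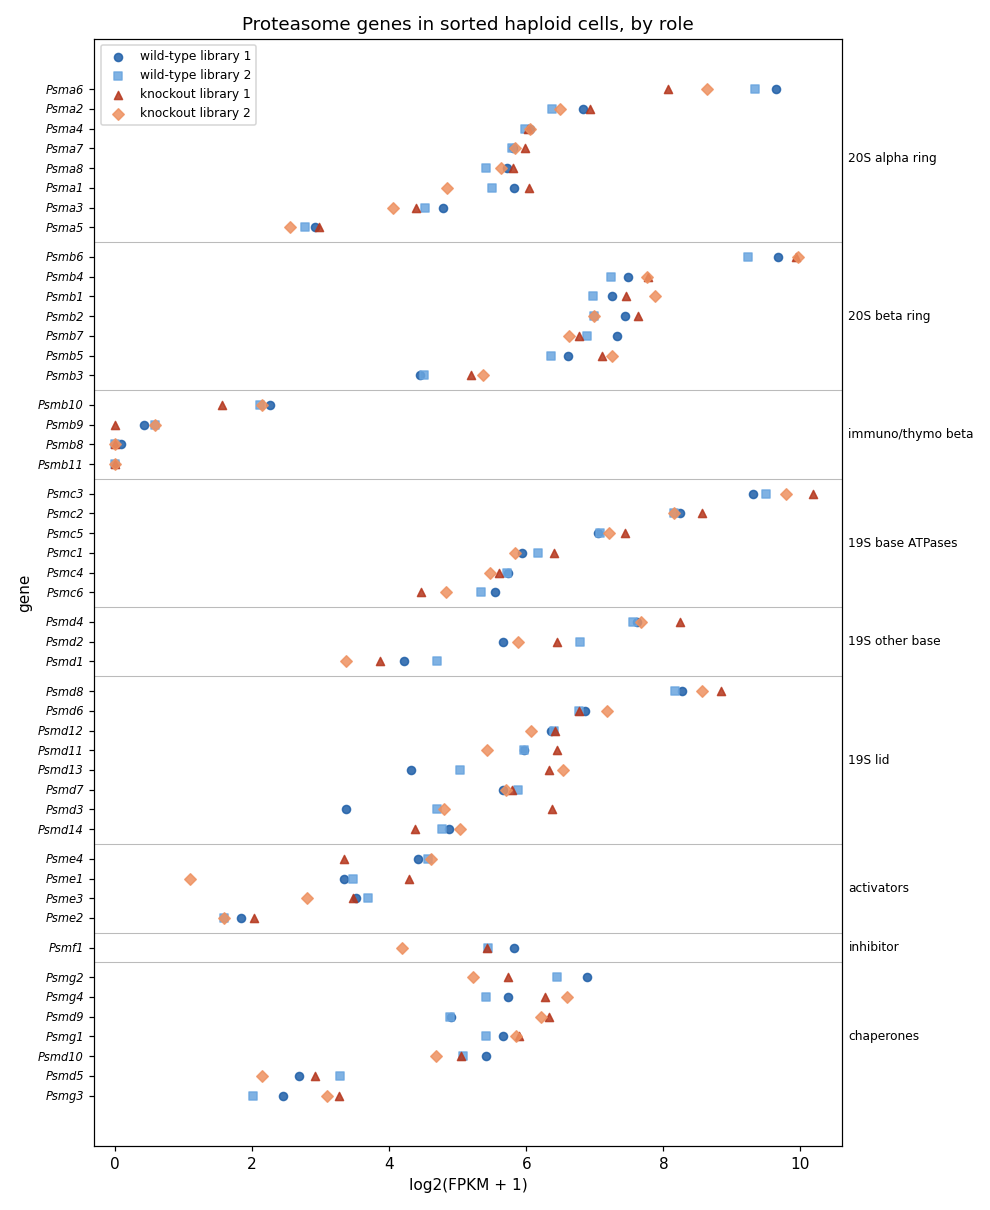
Level of each of the 48 proteasome genes in each library on a log2(FPKM + 1) axis, grouped by role and ordered by mean level within a role. The points of a gene mostly lie close together, with Psma6, Psmd3, Psmd13, Psmd9 and Psme1 among the exceptions.

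Most members differed by less than 2-fold between the genotypes. The log2 change lay between -1 and 1 for 40 of 45 members tested, where 70.0% of all genes tested did so. Only Psmg2 and Psma6 lay at -1 or below (23.3% of all genes tested), and Psmd9, Psmd3 and Psmd13 at 1 or above (6.67% of all genes tested). The median log2 change was 0.07 over the 45 members and -0.23 over all genes tested, and the median size without regard to sign was 0.40 and 0.64. Replicates of a genotype differed by a median of 0.24 (wild-type) and 0.41 (knockout) on the log2 scale for the members, and by 0.30 and 0.52 for all genes tested. The change between genotypes compares means of 2 libraries, whereas these replicate differences compare single libraries, so the sizes are not like for like. Members were more abundant than most genes, with a median over genes of 55.5 FPKM against 7.71 FPKM for all genes tested.

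**Figure D2:**
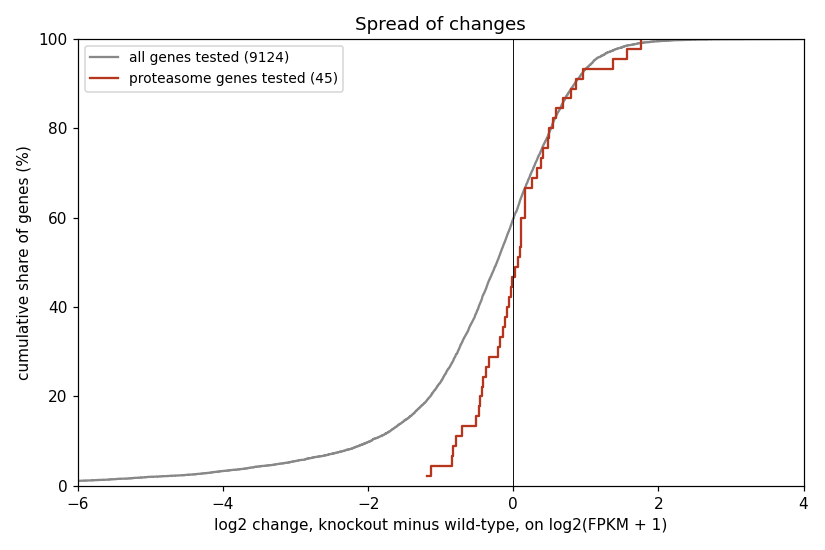
Cumulative share of genes (percent) against the log2 change, knockout minus wild-type, for the 45 proteasome genes and the 9124 genes tested. The lower tail of all genes reaches far below -2, whereas the proteasome genes span -1.19 to 1.76.

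In 16 of 45 members both knockout values lay above both wild-type values and in 10 both lay below, against 22.2% and 38.6% of all genes tested; in the other 19 the groups overlapped. The order of the genes by level was similar in the genotypes. Over the 48 genes, Spearman's rho was 0.976 between the wild-type libraries, 0.952 between the knockout libraries and 0.901 to 0.936 between genotypes, a description across genes that share libraries. Psmb6, Psma6 and Psmc3 held the first 3 places in wild-type library 1, wild-type library 2 and knockout library 2, while Psma6 came sixth in knockout library 1.

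**Figure D3:**
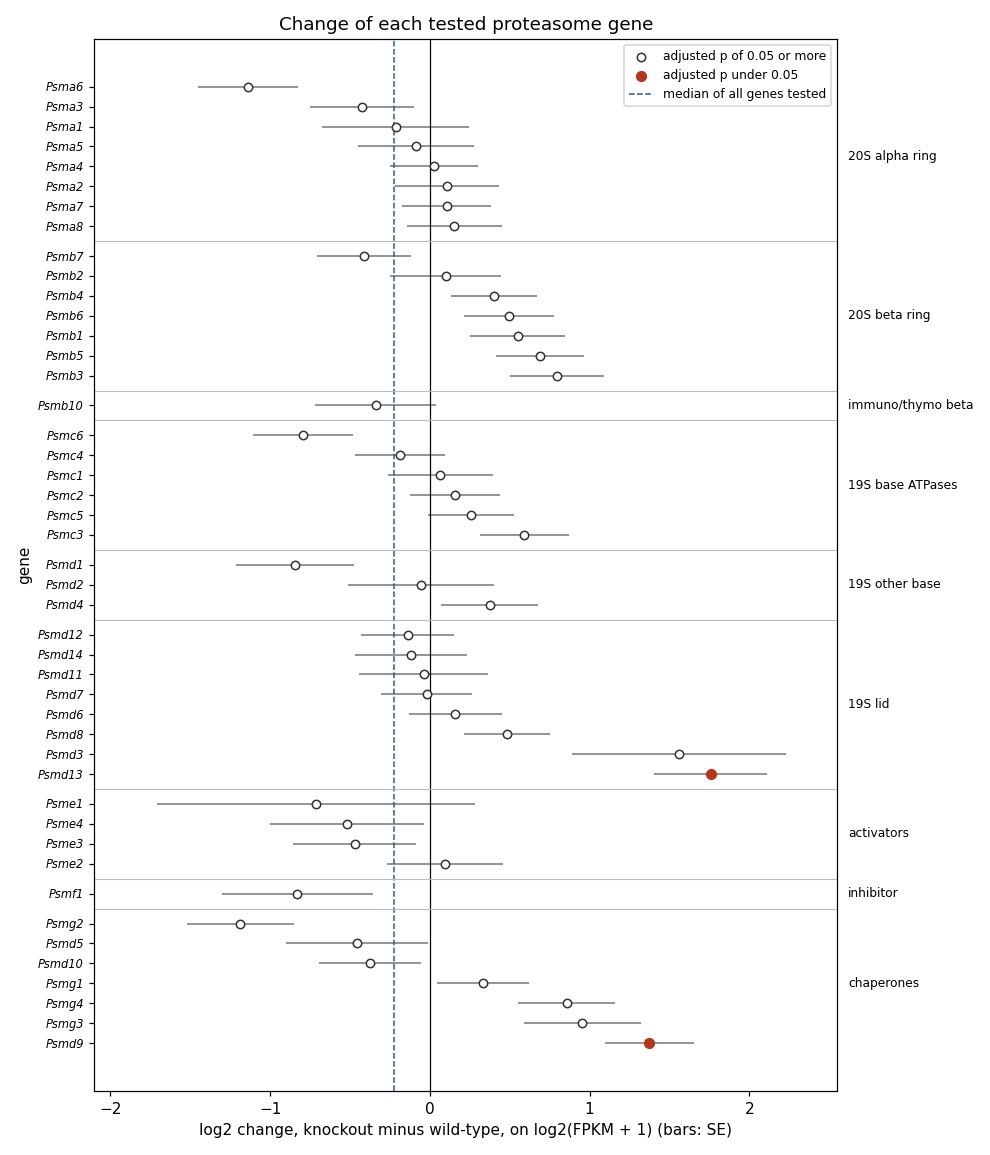
Log2 change of each of the 45 tested proteasome genes, knockout minus wild-type, with standard errors from the limma fit, grouped by role; filled points passed an adjusted p of 0.05 and the dashed line is the median of all genes tested. Psmd13 and Psmd9 are the filled points, at 1.76 and 1.37.

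The promoters of Psmd13 and Psmd9 are shown because these genes rose, and that of Psme4 because of its role in histone removal. Each sequence is the 250 bases before the RefSeq transcription start on GRCm38.p6 (the authors' build was mm9), on the plus strand. Capitals mark matches, on either strand, to TGACNNNGC (the antioxidant response element bound by the proteasome gene activators Nfe2l1 and Nfe2l2), CCAAT, TGACGTCA (the cAMP response element) or ACAAT (the core that SOX proteins bind).
Psmd13, chr7:140882144-140882393: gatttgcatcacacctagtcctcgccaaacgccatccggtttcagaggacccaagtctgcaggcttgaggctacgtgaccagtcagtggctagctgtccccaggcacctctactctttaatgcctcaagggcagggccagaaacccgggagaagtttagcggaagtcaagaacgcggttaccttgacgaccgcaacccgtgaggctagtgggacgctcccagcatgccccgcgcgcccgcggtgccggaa
Psmd9, chr5:123227940-123228189: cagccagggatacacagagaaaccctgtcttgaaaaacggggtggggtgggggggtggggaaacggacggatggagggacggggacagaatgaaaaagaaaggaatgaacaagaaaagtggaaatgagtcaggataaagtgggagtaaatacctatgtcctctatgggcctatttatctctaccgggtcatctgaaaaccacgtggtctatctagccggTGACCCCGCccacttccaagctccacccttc
Psme4, chr11:30771525-30771774: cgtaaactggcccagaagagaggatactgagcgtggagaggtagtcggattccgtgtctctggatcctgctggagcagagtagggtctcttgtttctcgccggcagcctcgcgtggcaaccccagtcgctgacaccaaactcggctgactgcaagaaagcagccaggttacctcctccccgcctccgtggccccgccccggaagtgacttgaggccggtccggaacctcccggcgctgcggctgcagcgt
Psmd9 had a TGACCCCGC match from 31 to 23 bases before its start, and the windows of Psmd13 and Psme4 held none of the 4 motifs. Of the 48 members, 40 had an entry. TGACNNNGC was found in 5 of these 40 (12.5%), namely Psmb5, Psmb6, Psmc6, Psmd12 and Psmd9, against 10.1% of 27025 promoter windows of the same length. CCAAT was in 35.0% of members and 34.5% of all windows, ACAAT in 12.5% and 28.3%, and TGACGTCA in 0 of 40 and 1.62%. The shorter motifs can overlap one another, and a match is a string of letters, not a measured site.

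In the alpha ring, Psma6 stood apart from the other genes. Of 8 alpha genes, 0 passed (4 above 0 and 4 below), with a median log2 change of -0.03. Psma6, an alpha subunit present in every core, stood at 799 and 647 FPKM in wild-type cells and at 267 and 397 FPKM in knockout cells. Both knockout values were below both wild-type values, and the log2 change, -1.14 (SE 0.31, limma adjusted p = 0.0655), fell just short of the threshold. It passed after quantile normalization (log2 change -1.44, limma adjusted p = 0.00876) but not after median-ratio scaling (-0.95, limma adjusted p = 0.200). Nor did it pass when genes of any level were tested (limma adjusted p = 0.128). The change was -0.85 without knockout library 1 and -1.43 without knockout library 2. With a GC correction, which removes each library's trend over transcript GC content and was chosen after seeing the data, its log2 change was -0.73 (limma adjusted p = 0.328). The lowest alpha gene, Psma5, was at 6.56 and 5.85 FPKM against 6.87 and 4.84 FPKM, so transcripts for subunits of a single ring stood at very unequal levels.

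Psma8, the germ cell alpha subunit, stood at 51.9 and 41.4 FPKM in wild-type cells and at 54.8 and 48.8 FPKM in knockout cells. The groups overlapped, with a log2 change of 0.15 (95% interval -0.58 to 0.89, limma adjusted p = 0.757). Psma7, its somatic counterpart, was at 55.2 and 54.3 FPKM against 62.3 and 55.9 FPKM, with a log2 change of 0.11 (95% interval -0.58 to 0.79, limma adjusted p = 0.828). Psma8 made up 48.4% and 43.3% of Psma7 and Psma8 together in the wild type and 46.8% and 46.6% in the knockout, so the balance of the pair lay within the wild-type range in both knockout libraries. With the GC correction the log2 changes were 0.72 for Psma8 (limma adjusted p = 0.216) and -0.15 for Psma7 (limma adjusted p = 0.821), so the balance of the pair differed by that scaling.

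Most beta ring genes had higher values in the knockout, and none of the 7 passed. Their log2 changes lay above 0 in 6, and in 5 both knockout values exceeded both wild-type values (22.2% of all genes tested), with a median log2 change of 0.49. Psmb6, a catalytic subunit and the most abundant of the ring, stood at 816 and 599 FPKM against 973 and 998 FPKM (log2 change 0.49, limma adjusted p = 0.282). Psmb3, a structural subunit, had the most positive log2 change at 0.79 (SE 0.30, limma adjusted p = 0.134), with 20.9 and 21.8 FPKM in wild-type cells and 35.6 and 40.2 FPKM in knockout cells. Psmb5, the catalytic subunit with chymotrypsin-like activity, was at 96.8 and 81.5 FPKM against 137 and 151 FPKM.

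Psmb7, the catalytic subunit with trypsin-like activity, was the one beta gene below 0. It stood at 159 and 118 FPKM in wild-type cells and at 108 and 97.8 FPKM in knockout cells (log2 change -0.41, SE 0.29, limma adjusted p = 0.385). The GC correction turned this change to 0.24 (limma adjusted p = 0.721), with Psmb6 at 0.62. Among the catalytic genes Psmb5, Psmb6 and Psmb7, its share was 14.9% and 14.8% in the wild type and 8.84% and 7.85% in the knockout, while Psmb6 took 76.1% and 75.0% against 79.9% and 80.0%. Without a GC correction the share of Psmb7 was lower in both knockout libraries than in either wild-type library; it was noticed in the data, no test was made of it, and an exact permutation test of 2 against 2 could not go below p = 0.333. GENCODE names pseudogenes of Psmb5, Psmb6 and Psmb7, whose reads the values may hold.

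The immune forms of the catalytic subunits were a small part of the catalytic transcripts. Psmb8, Psmb9 and Psmb10, which replace Psmb5, Psmb6 and Psmb7 after interferon signalling, made up 0.391% and 0.479% of the 6 catalytic genes in the wild type and 0.160% and 0.312% in the knockout. Psmb10 was at 3.79 and 3.35 FPKM against 1.95 and 3.41 FPKM (log2 change -0.34, limma adjusted p = 0.576). Psmb9 stood at 0.345 and 0.494 FPKM in wild-type cells and was listed at 0 and at 0.493 FPKM in knockout libraries 1 and 2. Psmb8 was at 0.0652 FPKM in wild-type library 1 and listed at 0 in the other 3 libraries, and Psmb11, the thymus form, was listed at 0 in all 4. The 7 immune cell markers summed to 1.43 to 1.49 FPKM in wild-type cells and 0.283 to 1.54 FPKM in the knockout.

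In the base of the regulatory particle no ATPase gene passed. Of 6 ATPase genes, which unfold the substrate and thread it into the core, 0 passed, with a median log2 change of 0.11. Psmc3, by far the most abundant of them, stood at 631 and 718 FPKM in wild-type cells and at 1157 and 888 FPKM in knockout cells. Both knockout values were above both wild-type values, but the difference did not pass (log2 change 0.59, 95% interval -0.10 to 1.28, limma adjusted p = 0.210). Psmc6 was the most negative, at 45.5 and 39.6 FPKM against 21.0 and 27.5 FPKM (log2 change -0.80, SE 0.31, limma adjusted p = 0.150). Its change was 0.0014 with the GC correction, -0.61 without knockout library 1 and -0.98 without knockout library 2. Of the summed FPKM of the 6 genes, Psmc3 took 51.6% and 55.3% in the wild type and 62.2% and 61.4% in the knockout, and Psmc6 3.72% and 3.05% against 1.13% and 1.90%. The ring holds these subunits in equal number, whereas their transcripts stood at unequal levels in both genotypes. Psmc3 shares 147 exon bases with Slc39a13 on the opposite strand, which stood at 2.81 FPKM or less.

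**Figure D4:**
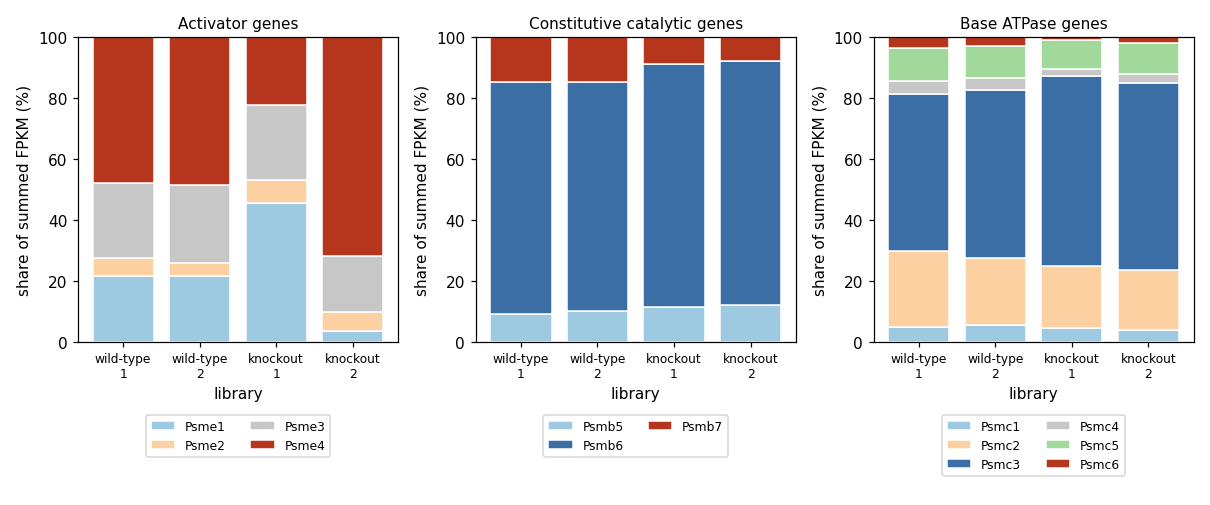
Stacked shares (percent of summed FPKM) of the activator genes, the constitutive catalytic genes and the base ATPase genes in each library. The activator shares differ most between knockout libraries 1 and 2, whereas Psmb7 and Psmc6 take smaller shares in both knockout libraries than in the wild type.

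The other base genes did not pass. Psmd4, a ubiquitin receptor, stood at 195 and 187 FPKM against 302 and 204 FPKM (log2 change 0.37, limma adjusted p = 0.447). Psmd1, a scaffold of the base, was at 17.7 and 25.0 FPKM against 13.5 and 9.35 FPKM (log2 change -0.85, SE 0.37, limma adjusted p = 0.182), with both knockout values below the wild type. Psmd2, the other scaffold, was at 49.8 and 109 FPKM against 86.6 and 58.0 FPKM, so its wild-type libraries differed more than the genotypes did.

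In the lid, 1 of 8 genes rose. Psmd13, a structural lid subunit, stood at 18.95 and 31.7 FPKM in wild-type cells and at 79.9 and 91.5 FPKM in knockout cells, a 3.38-fold difference of the means. Both knockout values were far above both wild-type values, and the log2 change was 1.76 (SE 0.35, limma adjusted p = 0.0240). The call ended when genes of any level were tested (limma adjusted p = 0.0630). It was also lost without wild-type library 1 (log2 change 1.40) or 2 (2.12). Every gene that rose lost its call in those 2 fits, so they cannot decide about Psmd13. Psmd13 shares 329 exon bases with Sirt3 on the opposite strand, and the counting is not stated to use strand; Sirt3 stood at 36.3 and 45.9 FPKM against 70.5 and 40.2 FPKM (log2 change 0.38, limma adjusted p = 0.533).

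The other lid genes did not pass. Psmd8, the most abundant lid gene, was at 308 and 286 FPKM against 458 and 376 FPKM (log2 change 0.48, limma adjusted p = 0.274), and Psmd12 lay at a log2 change of -0.14 (limma adjusted p = 0.777), the most negative of the lid. Psmd3, a structural lid subunit, stood at 9.29 and 25.0 FPKM in wild-type cells and at 82.3 and 26.9 FPKM in knockout cells. Knockout library 1 stood far above the rest and wild-type library 1 far below. The log2 change of 1.56 had a standard error of 0.67 (limma adjusted p = 0.178). This change was 0.77 without knockout library 1 and 2.35 without knockout library 2.

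Activator transcripts were low beside the core and differed most between the knockout libraries. The 4 activator genes listed summed to 42.4 and 46.8 FPKM in wild-type cells and 40.9 and 32.5 FPKM in knockout cells, and 0 of 4 passed (median log2 change -0.49). Psme4 stood at 20.3 and 22.7 FPKM in wild-type cells, 9.12 FPKM in knockout library 1 and 23.4 FPKM in knockout library 2. The low value was in 1 knockout library only, and the groups overlapped (log2 change -0.52, 95% interval -1.70 to 0.67, limma adjusted p = 0.505). The change was 0.12 without knockout library 1, -1.15 without knockout library 2 and 0.02 with a GC correction.

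Psme1 and Psme2 encode the 2 subunits of the interferon-induced activator PA28. Psme1 was high in the knockout library where Psme4 was low, and low in the other, at 9.11 and 10.1 FPKM in wild-type cells and at 18.6 and 1.13 FPKM in knockout libraries 1 and 2 (log2 change -0.71, SE 1.0, limma adjusted p = 0.660). Without knockout library 1 its change was -2.32 and without knockout library 2 it was 0.89. Psme2 was at 2.57 and 2.01 FPKM against 3.09 and 2.0 FPKM (log2 change 0.09, limma adjusted p = 0.885). Psme3, which encodes the nuclear form of the activator, was at 10.4 and 12.0 FPKM against 10.1 and 5.95 FPKM. Of the summed activator FPKM, Psme4 took 47.9% and 48.5% in the wild type and 22.3% and 72.0% in knockout libraries 1 and 2, and Psme1 21.5% and 21.6% against 45.5% and 3.47%. The wild-type libraries were alike in these shares, and the knockout libraries lay on opposite sides of them. Psmf1, an inhibitor of the core, was at 55.4 and 42.4 FPKM against 41.8 and 17.1 FPKM (log2 change -0.83, SE 0.47, limma adjusted p = 0.285). Its change was -1.45 without knockout library 1 and -0.21 without knockout library 2.

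Assembly chaperone genes had log2 changes of both signs. These proteins help rings and base modules come together and leave the finished particle. Of 7 chaperone genes 1 rose, 0 fell and 6 did not pass, and the log2 changes spanned -1.19 to 1.37, with a median of 0.33. In 6 of the 7 the groups did not overlap, 4 higher and 2 lower, against 22.2% and 38.6% of all genes tested. Psmd9, a chaperone of the base ATPases, stood at 29.0 and 28.5 FPKM in wild-type cells and at 79.2 and 73.3 FPKM in knockout cells, a 2.65-fold difference of the means. Replicates of a genotype were close and the groups far apart, and the log2 change was 1.37 (SE 0.28, limma adjusted p = 0.0255). The call was lost without wild-type library 1 (log2 change 1.39) or 2 (1.36). Every gene that rose lost its call in those fits, so they cannot decide about Psmd9.

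Psmg1 and Psmg2 pair with each other, as do Psmg3 and Psmg4, to build the alpha ring. Psmg2 stood at 117 and 86.0 FPKM in wild-type cells and at 52.0 and 36.3 FPKM in knockout cells (log2 change -1.19, SE 0.34, limma adjusted p = 0.0702), the most negative of all members. Its change was -1.44 without knockout library 1 and -0.93 without knockout library 2. Without wild-type library 1 or 2 it was -0.97 or -1.40. It did not pass with the GC correction (-0.81, limma adjusted p = 0.185). Its partner Psmg1 stood at 49.7 and 41.5 FPKM against 58.2 and 56.7 FPKM. Psmg2 was thus above Psmg1 in both wild-type libraries and below it in both knockout libraries. Psmg3 was at 4.45 and 3.03 FPKM against 8.65 and 7.54 FPKM (log2 change 0.95, limma adjusted p = 0.143) and Psmg4 at 52.4 and 41.4 FPKM against 76.1 and 95.3 FPKM (log2 change 0.86, limma adjusted p = 0.123). In this second pair both genes were higher in both knockout libraries, without passing the test.

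Related genes outside the rule were taken from 4 lists of proteasome partners, regulators of proteasome genes, the p97 unfoldase pathway and antigen processing. Of 43 symbols 42 were listed and 33 tested; 1 rose, 0 fell and 32 did not pass, and at an unadjusted p under 0.05 by limma 4 were higher and 5 lower. Of all genes tested 1.95% rose and 13.4% fell, and 8.30% and 23.0% were higher and lower at the unadjusted p. The one that rose was B2m, the light chain of MHC class I, at 6.82 and 9.11 FPKM in wild-type cells and 25.6 and 29.1 FPKM in knockout cells (log2 change 1.67, SE 0.33, limma adjusted p = 0.0235). Its call was lost when either wild-type library was left out. Every gene that rose lost its call in those fits, so they cannot decide about B2m. The class I heavy chains H2-K1 and H2-D1 also had both knockout values above both wild-type values. H2-K1 stood at 5.58 and 7.27 against 13.6 and 15.1 FPKM (log2 change 1.05, limma adjusted p = 0.0998). It passed after quantile normalization (1.54, limma adjusted p = 0.0295), and its change was 1.12 without knockout library 1. H2-D1 stood at 3.62 and 4.22 against 12.4 and 4.81 FPKM (log2 change 0.85, limma adjusted p = 0.292). Its change was 0.24 without knockout library 1 and 1.45 without knockout library 2. Tapbp, which loads peptides onto the same molecules, was at 11.9 and 22.3 FPKM against 17.7 and 8.58 FPKM.

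Among the 14 partners tested 0 passed, with a median log2 change of -0.27, against -0.23 over all genes tested. At an unadjusted p under 0.05 by limma 2 were lower and 1 higher, against 23.0% and 8.30% of all genes tested. Both knockout values lay below both wild-type values in 7 and above them in 2, against 38.6% and 22.2% of all genes tested. The most negative were Ube3c, a ubiquitin ligase of the proteasome, and Usp14, its deubiquitinase. Ube3c stood at 5.72 and 11.9 against 2.19 and 2.57 FPKM (log2 change -1.46, limma adjusted p = 0.0834) and Usp14 at 10.2 and 9.48 against 4.67 and 3.16 FPKM (log2 change -1.16, limma adjusted p = 0.0922); with the GC correction Usp14 was at -0.44 (limma adjusted p = 0.50). Without knockout library 1 Ube3c and Usp14 both passed, and without knockout library 2 Ube3c passed. Those fits take the spread from the wild-type libraries, and more of all genes passed in them than in the main fit. Shfm1, the small lid subunit also called Sem1, was at 1278 and 974 FPKM against 1171 and 2395 FPKM (log2 change 0.59, limma adjusted p = 0.374). The value of knockout library 1 lay between those of the wild-type libraries, so the groups overlapped. Without knockout library 1 the log2 change of Shfm1 was 1.10. Pomp, the maturation protein of the core, stood at 76.6 and 72.0 FPKM against 118 and 146 FPKM (log2 change 0.82, limma adjusted p = 0.114). Akirin2, which carries proteasomes into the nucleus, was at 170 and 165 FPKM against 199 and 194 FPKM (log2 change 0.23, limma adjusted p = 0.585). In the p97 list Ubxn1 was at 114 and 112 FPKM against 169 and 225 FPKM, and Ufd1l, a p97 cofactor, at 44.5 and 42.6 FPKM against 19.8 and 29.5 FPKM, with 0 of 7 passing.

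Regulators of proteasome genes were low except for Ngly1. Ngly1, the enzyme that removes sugars from Nfe2l1 and so allows its activation, stood at 102 and 128 FPKM in wild-type cells and at 51.5 and 21.8 FPKM in knockout cells. Both knockout values were lower, but the log2 change, -1.74 (SE 0.46, limma adjusted p = 0.0570), missed the threshold. It passed when 5 was the pseudocount (limma adjusted p = 0.0409). A mean of at least 5 FPKM also gave a pass (limma adjusted p = 0.0374). Median-ratio scaling (limma adjusted p = 0.0330) and quantile normalization (limma adjusted p = 0.0356) did so too. When 0.1 was the pseudocount, Ngly1 did not pass (limma adjusted p = 0.0897). Testing genes of any level (limma adjusted p = 0.130) or dropping the mean-variance trend (limma adjusted p = 0.0681) gave no pass either. Nfe2l1 itself stood at 0.645 and 0.864 FPKM against 0.322 and 3.04 FPKM (log2 change 0.40, limma adjusted p = 0.662), and Nfya at 3.53 and 2.73 FPKM against 3.83 and 2.05 FPKM. Nfe2l2 stood at 2.11 and 2.46 FPKM against 0.937 and 0.535 FPKM (log2 change -0.93, limma adjusted p = 0.124). Of 6 regulators tested 0 passed, with a median log2 change of -0.40. At an unadjusted p under 0.05 by limma 2 were lower and 0 higher, against 23.0% and 8.30% of all genes tested. Both knockout values lay below both wild-type values in 3 and above them in 0, against 38.6% and 22.2% of all genes tested.

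The log2 changes rose with transcript GC content over all genes tested, and less evenly over the members. The GC content of the tested members had a median of 49.7%, against 49.1% for all genes tested. Across 5 equal GC classes of the genes tested, the median log2 change rose from -0.68 in the lowest to 0.36 in the highest. For the members it was -0.12, -0.49, -0.02, 0.35 and 0.59 from the lowest to the highest class, over 7 to 11 genes each. After a GC correction Psmd13 and Psmd9 still passed, with log2 changes of 1.76 (limma adjusted p = 0.00870) and 1.55 (limma adjusted p = 0.0122).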

How the data were processed

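RNA from 4 libraries of sorted haploid cells was analysed. Values are FPKM, computed by the authors and deposited as 1 table of 23021 entries per library, per the file headers. Build mm9, Cuffdiff, Cufflinks 2.0.2 and TopHat2 2.0.6 appear in the submitters' processing notes. What each did, with which settings and whether by strand, was not given in the sources used here. Read counts were not used here, so absolute depth is unknown. From the most frequent ratio between libraries of the FPKM of low genes, relative to the first wild-type library, depth was 1.39 in the second, and 1.24 and 1.16 in knockout libraries 1 and 2.

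Entries of 1 symbol were summed, which concerned 259 symbols and no proteasome gene, giving 22552 symbols. Genes with a mean of at least 1 FPKM were fitted with limma 3.58.1 in R 4.3.3 on log2(FPKM + 1), with genotype as the only term and a mean-variance trend (2 residual and 3.84 prior degrees of freedom). Two-sided p-values were adjusted by Benjamini and Hochberg's method over 9124 genes; fold changes on this scale understate those of low genes. Since separate animals are not stated, p-values reflect only library-to-library spread, possibly technical. On simulated data with 1000 of 9124 genes changed, the fit recovered 12.6% of log2 changes of 1, 63.5% of 2 and 90.2% of 4. The changed genes were all drawn from abundant genes, so recovery for low genes was not measured. A mean of 22.3 calls per simulated set were false.

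The members and lists were chosen with earlier results of these data known. Genes named are those past the threshold, Psma8, Psme4 and Psmc3, the most abundant and the most negative and positive member of each role, members listed at 0, and, in each related list, those that passed, or the most abundant up to 2. Psma1, Psma5, Psma7, Psmb5, Psmd2, Psmd3, Psme3, Psmg1, Psmg3, Psmg4, Pomp, Ube3c, Usp14, H2-K1, H2-D1, Nfe2l1, Nfe2l2 and the marker Ccna1 were added once their values had been seen. Alternatives were pseudocounts of 0.1 and 5, no filter, a mean of at least 5 FPKM, median-ratio scaling, quantile normalization, no trend, the highest entry of a symbol in each library, a replicate block, leaving out each library, and an adjusted p under 0.1. A crossed block and a lowess correction (span 0.3) on transcript GC content from GENCODE M21, known for 98.6% of genes tested, were chosen after seeing the data. No protein sequences were used here.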

Additional observations from a re-analysis of the deposited data

How the results depend on the processing

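Of the 45 proteasome genes tested, the 2 that rose, Psmd9 and Psmd13, also passed with either pseudocount, a mean of at least 5 FPKM, median-ratio scaling, quantile normalization, no trend, the highest entry per symbol and the GC correction. With no filter, only Psmd9 of the 2 passed, making 1 higher. Leaving out each library in turn gave 0 to 5 members lower and 0 to 4 higher, 0 to 3071 of all genes lower and 0 to 984 higher, and 0 to 8 related genes lower and 0 to 7 higher, where 1 library of a genotype is left and is taken to vary like the other genotype. Neither fit that left out a wild-type library called any gene higher or any member lower, so these fits cannot decide about single members. Without knockout library 1, Psma1, Psmd1, Psme1, Psmf1 and Psmg2 passed as lower, and without knockout library 2, Psma6, Psmc6, Psme4 and Psmg2; as higher, Psmb3, Psmd9, Psmd13 and Psmg4 and then Psmd3, Psmd9 and Psmd13. Quantile normalization gave 1 member lower (Psma6), and 608 of all genes higher. All genes higher were 113 with a pseudocount of 0.1, 62 with no filter, 283 with median-ratio scaling, 326 with the GC correction and 414 at an adjusted p under 0.1, and all genes lower were 787 with a mean of at least 5 FPKM. At an adjusted p under 0.1, 2 members were lower (Psma6 and Psmg2) and 2 higher (Psmd9 and Psmd13). By that rule 1644 of all genes were lower and 414 higher, and 3 related genes were lower and 2 higher. Related genes lower were 1 with a pseudocount of 5, a mean of at least 5 FPKM, median-ratio scaling and quantile normalization, the last with 2 higher. The cause of these shifts was not tested.

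The library numbers in the titles are not stated to pair the libraries; deviations of same-numbered libraries correlated at -0.20 across genes. With the replicate block 1 member was higher (Psmd13, while Psmd9 had limma adjusted p = 0.0812), 82 of all genes were higher and 0 related genes, B2m having limma adjusted p = 0.0553. With the crossed replicate block 1 member was lower and 3 were higher, 1416 of all genes were lower and 390 higher, and 1 related gene was lower and 1 higher.

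The scalings moved the median of all genes from -0.23 to -0.07 (median ratio), 0.17 (quantile) and 0.01 (GC), and that of the members from 0.07 to 0.22, 0.24 and 0.32. Of the 45 members, 7 changed sign with median-ratio scaling, 11 with quantile normalization, 14 with the GC correction and 17 on leaving out at least 1 of the libraries; none had passed. Signs were compared for the genes named, members and related, except Nfe2l2. The log2 changes of the other sign were 0.031 for Nfya, 0.074 for Psma5, 0.051 for Psmd12 and 0.13 for Psmd2 with median-ratio scaling. With quantile normalization they were 0.48 for Nfya, 0.10 for Psma1, 0.47 for Psma5, 0.24 for Psmb10, 0.035 for Psmd12, 0.13 for Psmd2, 0.047 for Psme3 and 0.065 for Tapbp. With the GC correction they were 0.066 for Nfya, 0.31 for Psma1, 0.19 for Psma5, -0.15 for Psma7, 0.24 for Psmb7, 0.0014 for Psmc6, 0.20 for Psmd12, 0.10 for Psmd2 and 0.015 for Psme4. Leaving out 1 library gave these named genes ranges across 0, -0.43 to 0.23 for Nfya, -0.82 to 0.39 for Psma1, -0.0047 to 0.31 for Psma8, -0.62 to 0.50 for Psmd2, -0.13 to 0.32 for Psme2, -0.86 to 0.11 for Tapbp, -1.15 to 0.12 for Psme4, -0.41 to 1.21 for Nfe2l1, -0.30 to 0.13 for Psma5, -0.32 to 0.039 for Psmd12 and -2.32 to 0.89 for Psme1. FPKM without read counts limit what can be said of Psmb8, Psmb9, Psme2 and other genes near 0.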
